A study of Mus musculus with 4 samples.

Results

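The polyp change of gene expression was compared between wild-type (WT) and Clec7a-deficient (Clec7a-/-, here KO) mice, using all 4 colorectal RNA-seq libraries of the study. For each gene name, TPM (a level scaled to transcript length and to the size of the library) was converted to log2(TPM + 1). The change from non-polyp to polyp tissue was then taken within each genotype, and the WT change was subtracted from the KO change. This difference is positive where KO polyps gained more, or lost less, than WT polyps, and negative in the opposite case. It could be computed for 54595 of 54621 gene names, those present in all 4 tables, and it was past 1 log2 unit in size, the study's own threshold applied here to the difference, for 5498 of them. Below, "rose" and "fell" are used of values past 1 log2 unit.

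The mice were germ-free, that is, raised without microbes, and had received the carcinogen azoxymethane and 3 cycles of 1% dextran sodium sulfate, which injures the colon lining. Tissue was taken at week 36. Each combination of genotype and tissue was sequenced as 1 pool of RNA from several mice. No replicate error exists, therefore, no test was run, and every value is a difference between pools. Germ-free WT mice came from a supplier, whereas the KO line, backcrossed to C57BL/6J, was made germ-free by caesarean delivery and nursed by WT mothers, so genotype and source of the mice cannot be told apart. The study also states that germ-free KO mice developed no polyps, so the "KO polyp" library is named as labelled and its tissue is not known. In bulk tissue, fewer cells of a type and less RNA per cell cannot be told apart either. No read counts were used, and how deeply KO non-polyp tissue was sequenced is not known, so no interval for counting error is given.

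As background, Clec7a encodes Dectin-1, a receptor by which myeloid cells bind beta-glucans and signal through the kinase Syk. Colorectal polyps induced by azoxymethane typically carry active Wnt signalling, a pathway that maintains crypt stem cells, and lose genes of mature absorptive and goblet cells. The colon wall also holds lymphoid follicles, where B cells gather around stromal cells that secrete the chemokine CXCL13, beneath an epithelium that samples the lumen. A dissected piece of colon can hold mucosa, follicles and underlying muscle in different proportions.

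The targeted gene was checked first. Clec7a (chromosome 6, 129461591 to 129472779, minus strand, GRCm38) stood in WT at 5.97 TPM outside polyps and 31.2 TPM inside them, and in KO at 0.0766 and 0.102 TPM. It rose in WT polyps by 2.21 log2 units, stayed near 0 in KO, and its difference was -2.18. Of 12 genes of Dectin-1 signalling, the difference was above 1 for 3 and below -1 for 3, with a median of 0.35. Clec7a itself was the lowest of them. Over all names with a mean of at least 1 TPM, 14% were above 1 and 12.1% below -1. Syk was at 18.1, 27.7, 17.9 and 75.3 TPM in the same order of libraries (used throughout: WT non-polyp, WT polyp, KO non-polyp, KO polyp), and Card9, the adaptor that follows Syk, was at 1.63, 5.85, 2.23 and 11.2 TPM. Syk thus rose in KO polyps and not in WT polyps, while Card9 rose in both.

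Over all names, the difference was above 1 for 2852 (5.22% of those measured) and below -1 for 2646 (4.85%). Among the 17477 names with a mean of at least 1 TPM, 14% were above 1 and 12.1% below -1, with a median of -0.07. Taken alone, 5.16% of all names rose and 3.67% fell in WT polyps, against 3.29% and 0.989% in KO polyps. At a mean of at least 1 TPM these shares were 13.8%, 10.7%, 8.67% and 2.55%. The non-polyp libraries resembled each other most: 601 of these 17477 names (3.44%) differed between them by over 1 log2 unit, against 4292 (24.6%) between the WT libraries, 1962 (11.2%) between the KO libraries and 4401 (25.2%) between the polyp libraries. KO exceeded WT by over 1 log2 unit for 0.76% of all names in non-polyp tissue and 5.06% in polyps, and lay below it for 0.636% and 4.29%. Most of the differences therefore lay in the polyp libraries. For 2254 of the 2852 positive names (79.0%) and 1904 of the 2646 negative ones (72.0%), the genotypes differed by over 1 log2 unit in polyps, in the direction of the difference, and non-polyp tissue did not add as much.

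The positive and negative differences were built differently. Among the negative ones, 1787 names (67.5%) changed in WT polyps alone, all of them upward, 174 (6.58%) fell in KO polyps alone and 51 (1.93%) rose in WT polyps and fell in KO polyps. Among the positive ones, 1169 (41.0%) fell in WT polyps alone, 991 (34.7%) rose in KO polyps alone and 143 (5.01%) reversed, up in KO polyps and down in WT polyps. The rest moved the same way in both genotypes to unequal extents, or passed in neither genotype taken alone. A single library stood apart, over 1 log2 unit from each of the other 3 while those lay within 1 log2 unit of one another, for 3104 of the 5498 names. WT polyps stood apart high for 1312 names and low for 859, KO polyps high for 738 and low for 43, and the non-polyp libraries together for 152.

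**Figure D1:**
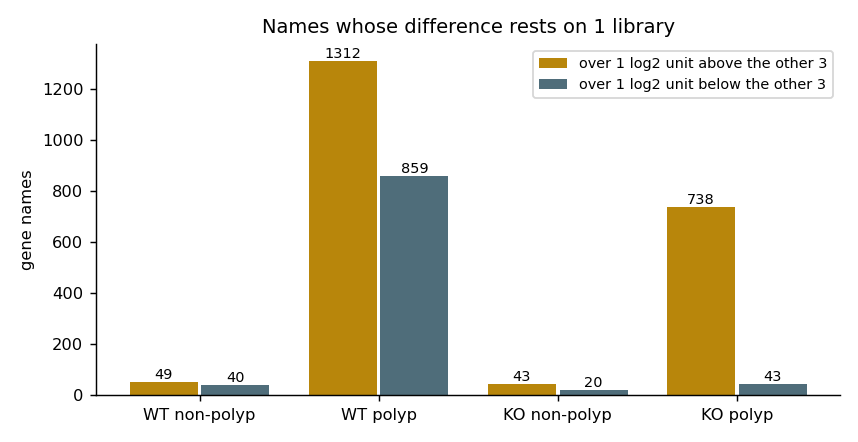
Bars give the number of gene names, among those whose difference was past 1 log2 unit, for which 1 library lay over 1 log2 unit above (gold) or below (blue-grey) each of the other 3. WT polyps account for 1312 high and 859 low names and KO polyps for 738 high and 43 low ones, while no non-polyp bar exceeds 49.

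Both genotypes also shared part of the polyp change. Among names with a mean of at least 1 TPM, 2416 rose in WT polyps and 1516 in KO polyps, and 375 rose in both, which is 15.5% of the first set and 24.7% of the second. Of the 1876 that fell in WT polyps and the 446 that fell in KO polyps, 209 fell in both (11.1% and 46.9%). Over all names at that level, 8.67% rose and 2.55% fell in KO polyps, against 13.8% and 10.7% in WT polyps. Genes that rose in both with differences within 1 log2 unit, named here after their values were seen, included Stra6, a cell-surface retinol transporter, at 5.19, 286, 0.111 and 28 TPM, and Lyz1, a lysozyme of Paneth cells, at 101, 1168, 8.79 and 170.2 TPM. For both genes KO lay below WT in each tissue, by 2.48 and 3.38 log2 units outside polyps and by 3.31 and 2.77 in polyps. The cytokine gene Tnf belonged here as well, at 2.43, 17, 1.65 and 10.1 TPM.

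**Figure D2:**
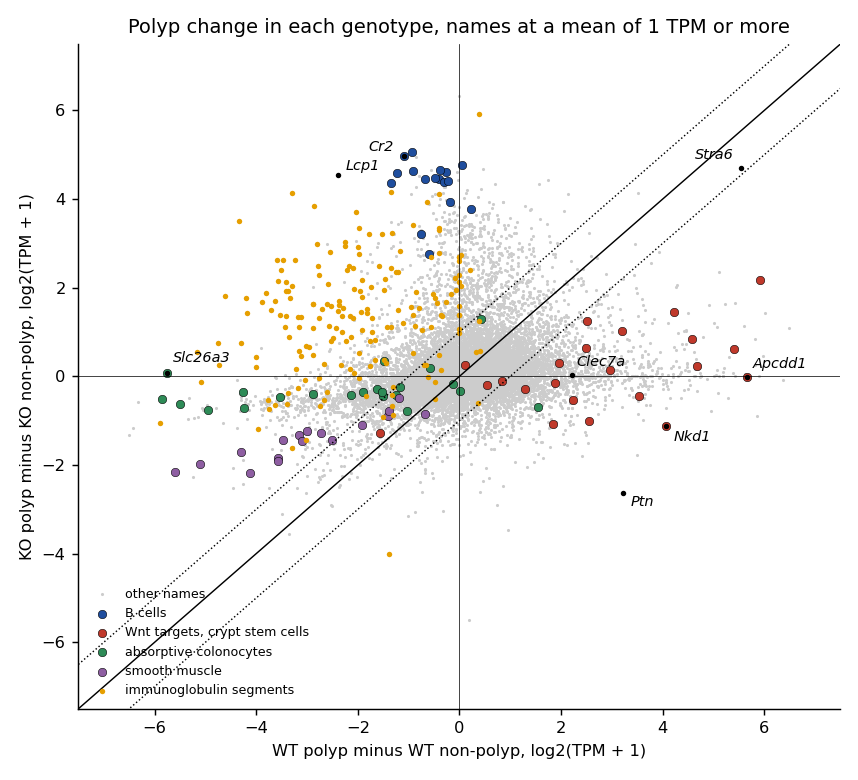
Each point is a gene name with a mean of at least 1 TPM, placed by its WT polyp change (horizontal) and KO polyp change (vertical), both in log2(TPM + 1). The solid line marks equal changes and the dotted lines a difference of 1 log2 unit. B cell genes lie high and left of centre, Wnt and stem cell genes far right near or below 0, and colonocyte genes far left near 0.

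Reversals were the extreme case. The 143 names up in KO polyps and down in WT polyps (0.262% of those measured) comprised 82 immunoglobulin segments, 44 protein-coding genes, 9 short RNA genes, 1 T cell receptor segment and 7 others. The 51 names down in KO polyps and up in WT polyps (0.0934%) comprised 36 protein-coding genes, 10 short RNA genes and 5 others, and no immunoglobulin segment. Short RNA genes lie mostly inside longer transcripts whose reads they may share, and are not described singly. Scarce genes weigh in these counts: with a pseudocount of 5 TPM in place of 1, 53 names reversed upward and 4 downward, the latter being Ptn, Sarnp, Kank1 and Mir194-2.

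Antigen receptor segments and short RNA genes left out, the largest reversal upward in KO polyps among genes at 10 TPM or more in some library belonged to Lcp1 (chromosome 14, 75131101 to 75230842, plus strand), which encodes L-plastin, an actin-bundling protein of leukocytes. Its levels were 30.6, 5.06, 9.55 and 247 TPM, so it fell by 2.38 log2 units in WT polyps and rose by 4.55 in KO polyps, a difference of 6.93 and the highest of any gene named under the rule used here. Cr2, whose complement receptors sit on B cells as well as on follicular dendritic cells, stood at 5.33, 1.96, 3.0 and 125 TPM (difference 6.07). Ms4a1, which encodes CD20, was at 4.71, 1.44, 3.5 and 106 TPM (5.81), and Spib, a transcription factor of B cells that M cells also need, at 10.9, 3.67, 7.5 and 173 TPM (5.71). In Cr2, Ms4a1 and Spib the non-polyp libraries lay within 1 log2 unit of each other and the polyp libraries sat on opposite sides of them, while Lcp1 was already 1.58 log2 units lower in KO non-polyp tissue than in WT.

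Cxcl13, the chemokine that draws B cells into follicles, was at 52.1, 14.8, 39 and 271 TPM (difference 4.52). Ccr6, the receptor for CCL20 on lymphocytes, stood at 2.23, 0.264, 0.582 and 16.6 TPM (4.83), and was already 1.03 log2 units lower in KO non-polyp tissue than in WT. Its ligand gene Ccl20, which follicle-associated epithelium secretes, also reversed, from 10.7 to 4.19 TPM in WT and from 12.7 to 111 TPM in KO. Cd69, an early activation marker of lymphocytes, was at 2.08, 0.324, 0.695 and 17.3 TPM (4.65). Il22ra2 (chromosome 10, 19621998 to 19634681, plus strand) encodes a secreted decoy receptor that binds IL-22, and dendritic cells of lymphoid tissue are a known source. It stood at 4.81, 0.425, 5.98 and 57 TPM, a fall of 2.03 log2 units in WT polyps against a gain of 3.05 in KO polyps and a difference of 5.08. Cilp, a matrix protein of cartilage, was at 10.8, 2.87, 5.89 and 51 TPM (4.53). The study named Il22ra2, Ccr6 and Cd69 from these same libraries, so their direction is not independent evidence.

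Mpc2, a subunit of the mitochondrial pyruvate carrier, also reversed, at 115, 14.7, 26.1 and 109 TPM (difference 4.90), but the non-polyp libraries already differed by over 1 log2 unit. The same held for Sarnp, an RNA-export factor that fell in KO and rose in WT polyps, at 4.13, 46.8, 35.7 and 5.05 TPM (-5.82). Sarnp overlaps Dnajc14 and Ormdl2 in the annotation, and strand-aware counting is not stated, so reads there may be shared.

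Reversals downward in KO polyps were led by Ptn (chromosome 6, 36714929 to 36810220, minus strand), which encodes the heparin-binding growth factor pleiotrophin. It stood at 35.4, 336, 37.6 and 5.22 TPM, rose by 3.21 log2 units in WT polyps and fell by 2.63 in KO polyps (difference -5.84). Nkd1, an inhibitor of Wnt signalling that the pathway itself switches on, stood at 19.1, 334, 8.7 and 3.49 TPM (-5.17). Its level was already 1.05 log2 units lower in KO non-polyp tissue than in WT. Lgr5 (chromosome 10, 115450311 to 115587780, minus strand), the R-spondin receptor that marks crypt stem cells, was at 4.57, 31.8, 5.15 and 2.07 TPM, with a KO change of -1.004 that only just passed and a difference of -3.56. Smoc2, another crypt stem cell gene, reversed as well, at 38.3, 139, 38.3 and 17.6 TPM. For Ptn, Lgr5 and Smoc2 the non-polyp libraries of the genotypes were nearly level, and the polyp libraries parted from there.

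The further genes of this reversal were Fst, which encodes the activin inhibitor follistatin, at 3.61, 21.4, 7.06 and 1.83 TPM (difference -3.79), and Col9a2, a chain of type IX collagen, at 3.16, 22, 2.57 and 0.489 TPM (-3.73). Fxyd6, a regulator of the sodium pump, was at 22.8, 111, 26.8 and 12.3 TPM (-3.30), and Zbtb7c, a zinc finger repressor, at 6.01, 16.7, 5.07 and 0.465 TPM (-3.39). The long non-coding RNA Snhg11 was at 6.17, 21.4, 6.53 and 1.1 TPM (-3.49) and the antisense transcript Chn1os3, which overlaps Chn1, at 3.41, 18.2, 4.7 and 0.951 TPM (-3.67). Wnt5b, a secreted Wnt ligand named here after its values were seen, reversed from lower levels, at 0.202, 5.39, 3.18 and 0.204 TPM. However, KO non-polyp tissue already exceeded WT by 1.80 log2 units, and KO polyps were level with WT non-polyp tissue.

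**Figure D3:**
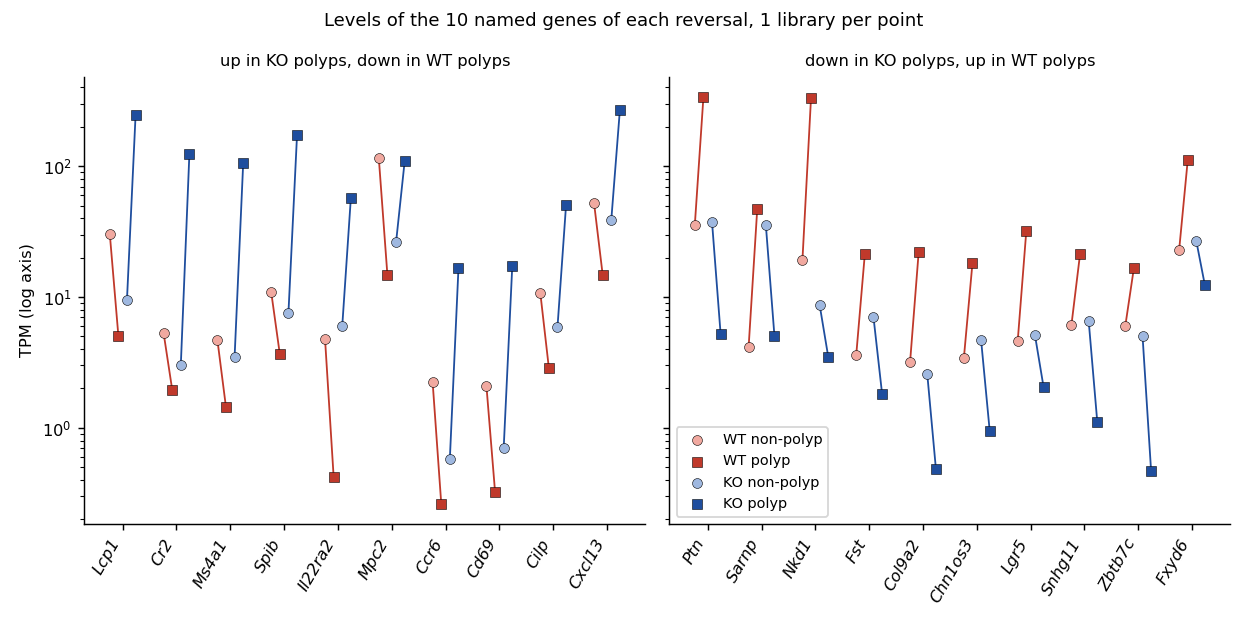
Levels in TPM on a log axis of the 10 named genes of each reversal in the 4 libraries, with 1 point per library and lines joining the tissues of a genotype. In the left panel the red WT lines fall and the blue KO lines climb, for example Lcp1 from 9.55 to 247 TPM in KO, and in the right panel the directions are exchanged, for example Ptn from 37.6 to 5.22 TPM in KO.

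Immunoglobulin genes gave 82 of the 143 upward reversals. Of 184 segments and constant genes with a mean of at least 1 TPM, the difference was above 1 for 167 and below -1 for 1, with a median of 3.38, against 14% above 1 and a median of -0.07 over all names at that level. Their medians were -2.01 in WT polyps and 1.38 in KO polyps. Summed over all 427, immunoglobulin genes took 5882, 617, 13748 and 21768 TPM in the order of libraries given above, so KO non-polyp tissue already exceeded its WT counterpart. Within KO the sums of the heavy chain variable segments, kappa variable segments and constant genes changed by 0.77, 0.74 and 0.61 log2 units, all within the threshold. In WT they changed by -3.63, -3.43 and -3.11, so these sums did not reverse. The sum of the 3 lambda variable segments did reverse, by -3.04 in WT and 1.39 in KO. It stood at 77.3, 8.51, 214 and 563 TPM, and each of its 3 segments reversed. Variable segments of 1 family resemble each other closely, and reads can be split among them, so sums are firmer than single segments.

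The isotypes did not move together. Igha, the constant gene of IgA, the main antibody of the gut, was at 1204, 96.4, 2829 and 1822 TPM. It fell by 3.63 log2 units in WT polyps, and its KO value of -0.63 was within the threshold. Jchain, which links IgA dimers, behaved likewise at 110.2, 13.4, 369 and 396 TPM. Ighm and Ighd, the isotypes of naive B cells, rose in KO polyps instead, Ighm at 74.2, 38.7, 99.5 and 1066 TPM and Ighd at 6.9, 9.27, 5.28 and 381 TPM, without passing the threshold in WT polyps.

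The IgG constant genes Ighg1, Ighg2b and Ighg3 reversed. Ighg2b stood at 9.6, 1.58, 73.4 and 978 TPM (difference 5.76), Ighg1 at 11.8, 0.758, 5.45 and 91.7 TPM (6.71), and Ighg3 at 4.16, 0.0785, 17.8 and 152 TPM (5.28). KO polyps thus held more IgM, IgD and IgG transcripts than either non-polyp library, whereas their Igha level lay between those of the non-polyp libraries. Pigr, the epithelial receptor that carries IgA into the lumen, was at 2312, 217, 2495 and 1409 TPM, low in WT polyps alone.

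**Figure D4:**
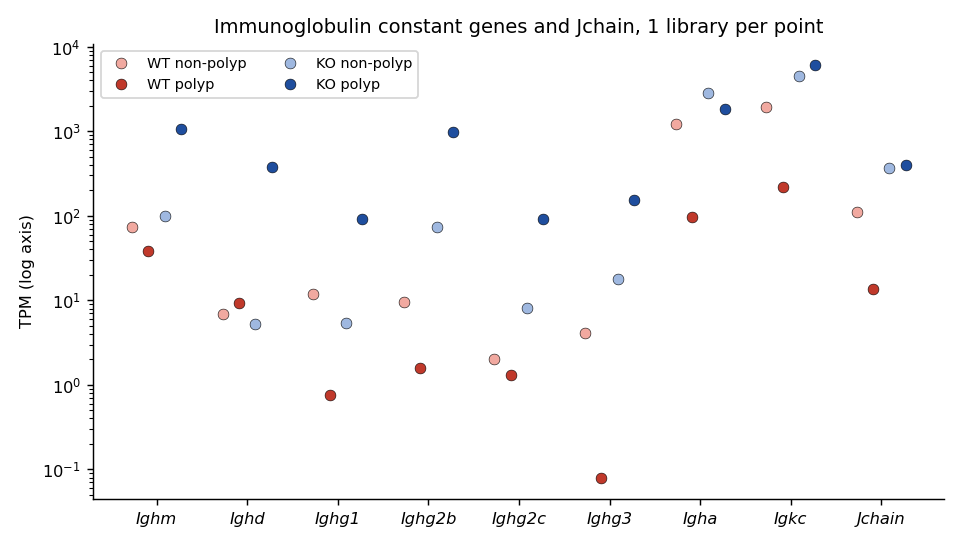
TPM on a log axis of immunoglobulin constant genes and Jchain, 1 point per library. The KO polyp point is the highest of the 4 for every gene shown except Igha, where KO non-polyp tissue is highest at 2829 TPM, and the WT polyp point is the lowest except for Ighd.

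Genes of B cells gave the largest list difference. All 17 listed B cell genes had a difference above 1, with a median of 4.87, and their median change was -0.48 in WT polyps and 4.46 in KO polyps. Fcer2a, the low-affinity IgE receptor CD23 of resting B cells, was at 6.5, 2.91, 3.37 and 144 TPM (5.998). Cxcr5, the receptor for CXCL13, stood at 3.39, 1.34, 1.63 and 63.7 TPM (5.53), and Cd79a, a signalling chain of the B cell receptor, at 16.8, 10.2, 14.9 and 345 TPM (5.11). For 13 of the 17, KO polyps stood apart high and the other 3 libraries lay close together. The B cell list summed to 114, 71.3, 89.3 and 2309.9 TPM.

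Plasma cell genes were less uniform: 3 of 13 had a difference above 1 and 2 below -1 (median 0.28). Over all names with a mean of at least 1 TPM these shares were 14% and 12.1%. Mzb1, an endoplasmic reticulum protein of marginal zone B and plasma cells, reversed at 7.81, 1.54, 18 and 67.6 TPM, and was already 1.11 log2 units higher in KO non-polyp tissue than in WT. Of 8 germinal centre genes 4 were above 1 and 1 below -1, with a median of 0.86. Of 11 genes of follicle stroma and vessels 7 were above 1 (median 2.40), among them Ltb, a lymphotoxin subunit that organises lymphoid tissue, at 10.04, 16.9, 8.22 and 185 TPM, and Madcam1, the vessel addressin that lets lymphocytes enter gut tissue, at 8.01, 7.18, 5.63 and 30.8 TPM. Of 8 genes of follicle-associated epithelium 5 were above 1 and 1 below -1 (median 1.59), and Gp2, a receptor of M cells, was at 1.49, 1.55, 1.93 and 27.3 TPM.

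T cell genes were also high in KO polyps, but none of those listed reversed. Of 18 T cell genes, 14 had a difference above 1 and none below -1 (median 1.81), with medians of 0.32 in WT and 2.29 in KO polyps. Cd2, an adhesion receptor of T cells, was at 2.56, 3.19, 2.91 and 41.5 TPM. All 9 members of the Gimap family of lymphocyte GTPases with a mean of at least 1 TPM were above 1, with a median of 3.09, for example Gimap6 at 18.9, 15.2, 15 and 161 TPM. Families were taken from the opening letters of the symbol, and those named here were picked from 245 families after their values were seen. Of 15 dendritic cell genes 13 were above 1 (median 1.96), including the chemokine receptor Ccr7 at 1.86, 4.18, 1.11 and 31.4 TPM, and of 14 macrophage genes 6 were above 1 (median 0.78).

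MHC class II genes, which present peptides to CD4 T cells, had a difference above 1 in 9 of 10 cases (median 2.10), and all 10 rose in KO polyps against none in WT polyps. H2-Ob and H2-Oa, the chains of a regulator of peptide loading found mainly in B cells, stood at 8.73, 4.35, 6.64 and 146 TPM (5.13) and at 4.7, 3.57, 4.57 and 97.6 TPM (4.47). Ciita, the coactivator that class II promoters depend on, was at 2.71, 2.02, 2.49 and 44.9 TPM (4.02). For 9 of the 10 class II genes, KO polyps stood apart high. The abundant class II gene H2-Eb1, at 207, 306, 248 and 1611 TPM, was among them. None of 10 MHC class I genes had a difference past 1 log2 unit in either direction (median 0.68). All were positive, however, from 0.30 to 0.87, and 4 rose in KO polyps against 1 in WT polyps. Their median KO minus WT value in polyps was 1.10.

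As class II genes rose together in KO polyps, the 250 bases before the RefSeq start of each gene (GRCm38.p6) were searched for the Y box ATTGG, a short element of class II promoters, on both strands. It occurred in 6 of the 7 listed class II genes with a RefSeq promoter (85.7%), and in 34.5% of all 27025 genes. Other lists held it as often, among them class I presentation (6 of 8, 75%) and proliferation (19 of 21, 90.5%). The 3 class II genes with the largest differences that held it are shown, 5′ to 3′ along the gene, with the matching letters in capitals. They lie on chromosome 17, at chr17:34238655-34238904 (plus strand), chr17:34092129-34092378 (plus) and chr17:34144999-34145248 (plus).
H2-Ob: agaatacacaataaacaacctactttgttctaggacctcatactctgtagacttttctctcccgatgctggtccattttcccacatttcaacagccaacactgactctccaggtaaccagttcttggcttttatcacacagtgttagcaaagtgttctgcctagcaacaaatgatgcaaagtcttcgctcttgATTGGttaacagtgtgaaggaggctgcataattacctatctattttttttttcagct
H2-Oa: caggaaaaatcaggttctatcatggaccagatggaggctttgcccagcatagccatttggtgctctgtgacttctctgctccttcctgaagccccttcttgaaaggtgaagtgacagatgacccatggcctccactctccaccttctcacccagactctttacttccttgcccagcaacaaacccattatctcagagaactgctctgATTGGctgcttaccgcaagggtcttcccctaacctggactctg
H2-DMb2: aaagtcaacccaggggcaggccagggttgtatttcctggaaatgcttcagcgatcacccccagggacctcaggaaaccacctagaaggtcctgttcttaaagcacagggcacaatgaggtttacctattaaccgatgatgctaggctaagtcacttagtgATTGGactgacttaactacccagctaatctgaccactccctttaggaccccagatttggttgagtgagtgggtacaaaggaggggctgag
H2-DMb2, which encodes a chain of the peptide-loading factor H2-DM, was at 15.1, 11.3, 10.3 and 179 TPM (difference 4.39). In these promoters the match lay 57, 43 and 90 bases before the start. For H2-DMb2, the gene as listed in the files begins upstream of this window, so its RefSeq start is 1 of several. A match of 5 letters is a description of the sequence and not evidence of a bound factor.

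Genes of Wnt signalling and crypt stem cells had the opposite pattern. Of 22 listed genes, 18 had a difference below -1 and none above 1, with a median of -2.76, beside 12.1% below -1 over all names with a mean of at least 1 TPM. The median change was 2.54 in WT polyps and 0.07 in KO polyps. Apcdd1, a membrane inhibitor of Wnt signalling, was at 7.9, 451, 1.21 and 1.2 TPM (-5.68), Notum, an enzyme that inactivates Wnt proteins, at 8.83, 418, 0.0555 and 0.625 TPM (-4.79), and Axin2, a feedback scaffold, at 28.1, 335, 27.7 and 20.1 TPM (-3.97). Prox1, a transcription factor that Wnt signalling induces in intestinal tumours, stood at 2.62, 92, 0.874 and 1.2 TPM (-4.45). Wif1, a secreted inhibitor, rose in both genotypes, to 418 TPM in WT and 9.92 TPM in KO polyps. Lgr5, Nkd1 and Smoc2 were the 3 members that reversed.

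The Wnt ligands themselves divided. Of 9 with a mean of at least 1 TPM, 5 had a difference below -1 and 2 above 1. Wnt10a (1.2, 72.9, 0.0353 and 0.146 TPM) and Wnt6 (3.96, 97.6, 1.91 and 4.74 TPM) were high in WT polyps, whereas Wnt11 was high in KO polyps (1.16, 1.08, 0.554 and 7.04 TPM). Wnt2b, a ligand of mesenchymal cells around the crypt, was low in WT polyps (7.05, 1.1, 6.02 and 6.33 TPM). These 4 ligands were named after their values were seen.

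The TCF/LEF core CTTTGA, the letters bound by the transcription factors of the Wnt pathway, occurred on either strand in the same window in 1 of the 14 Wnt and stem cell genes with a RefSeq promoter (7.14%), and in 14.1% of all genes. That gene was Sp5, a transcription factor and known direct Wnt target, whose difference was -3.72. Its promoter window (chr2:70474673-70474922, plus strand) held 2 matches, in capitals.
Sp5: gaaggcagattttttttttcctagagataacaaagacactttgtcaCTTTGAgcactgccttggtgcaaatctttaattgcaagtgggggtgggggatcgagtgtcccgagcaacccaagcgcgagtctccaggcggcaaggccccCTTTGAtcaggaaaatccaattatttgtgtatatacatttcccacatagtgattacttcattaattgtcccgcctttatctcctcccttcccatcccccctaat

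Proliferation genes rose with the Wnt genes in WT polyps. Of 24, 10 had a difference below -1 and none above 1 (median -0.97), and 18 rose in WT polyps against 0 in KO polyps. Top2a, a topoisomerase of dividing cells, was at 51.5, 127, 60.03 and 45.5 TPM, and Rrm2, a subunit of the enzyme that makes deoxyribonucleotides, at 13.7, 59.4, 13.5 and 15.4 TPM. The KO libraries were close to each other for both genes.

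Besides Ptn and Sarnp, the lowest differences among genes eligible to be named included several for which WT polyps stood apart high, among them Tesc, Saa3, Ltf, Nebl and Krt36. Tesc, which encodes the calcium-binding protein tescalcin, was at 0.233, 70.4, 1.16 and 0.159 TPM (-6.75). Saa3, a serum amyloid A protein of inflamed tissue, was at 0.0447, 85.4, 0.113 and 0.0461 TPM (-6.46), and Ltf, the iron-binding protein lactoferrin, at 0.202, 70.5, 0.0631 and 0.0701 TPM (-5.89). Nebl, an actin-binding protein, was at 0.341, 51.6, 0.52 and 0.0793 TPM (-5.79), and Krt36, a hair-type keratin, at 2.63, 204, 0.819 and 1.17 TPM (-5.57). Mt3, a metallothionein for which no library stood apart from the other 3, was at 11.9, 399, 3.72 and 1.75 TPM (-5.73). Of 4 metallothioneins, 3 were below -1 (median -3.20). Among those was Mt2, which went to -0.83 with the mean of both non-polyp libraries as baseline, an alternative described below.

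Paneth cell genes divided as well. Of 13, 8 had a difference below -1 and 1 above 1 (median -2.63). The alpha-defensins, antimicrobial peptides of Paneth cells, were listed at 0 in both KO libraries, including Defa24 at 37.5 and 487 TPM in WT non-polyp and polyp tissue and Defa21 at 0.834 and 91.1 TPM. All 8 defensins with a mean of at least 1 TPM had a difference below -1. They are near-identical copies among which reads can be split, so single members are uncertain, and since the KO non-polyp library also lacked them their differences follow from the WT libraries alone. Lyz1, named above, rose in both genotypes, and Mptx1, a pentraxin-like gene named after its values were seen, went the other way, at 7081, 81.7, 4882 and 2162 TPM (5.25), falling in both genotypes and further in WT.

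Squamous keratins, normally of stratified epithelium such as the anal canal, were likewise WT polyp genes: 10 of 17 squamous genes were below -1 and 1 above 1 (median -2.39). Krt15 stood at 4.9, 383, 1.0 and 4.43 TPM, Krt14 at 2.07, 98.4, 0.678 and 2.89 TPM, and Krt6a at 0.0957 and 26.4 TPM in WT while it was listed at 0 in both KO libraries. Of the keratins of simple epithelium, Krt8 was at 3284, 3753, 3527 and 3112 TPM, and of 11 pan-epithelial genes 1 had a difference below -1 and none above 1 (median -0.33). Krt18 was that gene, at 319, 1054, 361 and 294 TPM. In Krt17 the KO polyp library stood apart low, at 7.2, 10.4, 5.68 and 0.298 TPM.

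Cytokine, neutrophil and mast cell genes were higher in WT polyps, unlike the dendritic cell and macrophage genes above. Of 22 inflammatory cytokines and chemokines, 11 had a difference below -1 and 1 above 1 (median -0.95), and 18 rose in WT polyps against 8 in KO polyps. Cxcl5, a chemokine that attracts neutrophils, was at 2.84, 164, 0.23 and 2.85 TPM (-3.78), Il11, a cytokine of injured stroma, at 0.68, 19.2, 0.825 and 0.89 TPM (-3.53), and Il23a, a subunit of IL-23, at 0.632, 20.5, 0.547 and 1.21 TPM (-3.20). Il1b rose in both genotypes, at 3.85, 68.1, 3.12 and 9.14 TPM. The Cxcl family of chemokine genes divided. Of 10 members, Cxcl1, Cxcl2, Cxcl3, Cxcl5, Cxcl10 and Cxcl14 were below -1, and Cxcl12 and Cxcl13 were above 1. Cxcl9 (-0.38) and Cxcl16 (0.40) were within the threshold. Cxcl12, at 86.1, 14.3, 74.5 and 51.3 TPM, fell in WT polyps and did not rise in KO polyps, whereas Cxcl13 reversed.

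Neutrophil genes passed below -1 in 9 of 18 cases and above 1 in none (median -0.99). S100a9, a calcium-binding alarmin of neutrophils, was at 3.74, 101, 0.503 and 2.07 TPM (-3.39). It rose in both genotypes to unequal extents. Mast cell genes were below -1 in 10 of 13 cases and above 1 in 1 (median -1.87), among them Il1rl1, the IL-33 receptor, at 0.414, 126, 0.347 and 1.87 TPM (-5.40), and the mast cell protease Mcpt1 at 9.88, 61.6, 1.59 and 0.81 TPM (-3.04). Of 12 tissue-remodelling proteases, 7 were below -1 and none above 1 (median -1.77), with the stromelysin Mmp10 at 1.6, 163, 0.254 and 0.737 TPM (-5.51). Interferon response genes were below -1 in 6 of 20 cases (median -0.52), and the other 14 were within the threshold. Their median KO minus WT value was already -0.55 in non-polyp tissue. Over all names with a mean of at least 1 TPM, 12.1% were below -1 and 14% above 1.

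For prostaglandin E2, 4 of 16 genes of synthesis, breakdown and reception had a difference below -1 and 1 above 1 (median -0.29). The other 11 were within the threshold. Over all names with a mean of at least 1 TPM, 12.1% were below -1 and 14% above 1. Ptgs2, the inducible cyclooxygenase, was at 1.67, 26.7, 1.75 and 1.74 TPM (-3.38), and Pla2g2a, a secreted phospholipase, at 26.1, 553, 2.52 and 1.51 TPM (-4.84). Ptgs1, the constitutive cyclooxygenase, stayed within the threshold at 19.96, 26.7, 19.9 and 19.2 TPM, as did Ptges2 and Ptges3, synthases of prostaglandin E2, with differences of -0.02 and -0.70. Ptges3 alone of the last 3 rose in WT polyps, from 56.8 to 120 TPM. Pla2g2a also differed between the non-polyp libraries by over 1 log2 unit.

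The study named 35 genes from these libraries, of which 19 had a difference above 1 and 8 below -1, and this choice fixes much of their direction. Besides those given above, Cd3e, a chain of the T cell receptor complex, stood at 1.24, 0.649, 2.02 and 10.5 TPM (2.37), Cd4 at 1.86, 4.61, 1.7 and 17.4 TPM (1.80), and the co-stimulatory receptor Cd28 at 0.499, 0.0735, 0.113 and 2.85 TPM (2.27). Differences above 1 were also found for the class II gene H2-Ab1 (1.97), the integrin Itgax of dendritic cells (1.21), the co-stimulatory ligands Cd80 (1.04) and Cd86 (1.96), the chemokine receptors Cxcr3 (1.80) and Ccr9 (2.09), the T helper factor Tbx21 (2.01) and the cytokine subunit Il12a (2.34). Adh1 and Aldh1a1, enzymes of retinol and retinal oxidation, were at 2119, 107, 2277 and 1645 TPM (3.82) and at 45.4, 8.36, 70.02 and 50.5 TPM (1.85). Differences below -1 were found for Cxcl2 (-3.35), Il1b (-2.53), the monocyte chemokine Ccl2 (-1.57), Il6 (-1.41) and the phospholipase Pla2g2e (-1.36). Csf2 (-0.84), Tnf (-0.32), Ccl1 (-0.15), Il17a (0.00) and Ifng (0.20) were within the threshold, and Ifng and Il17a were below 1 TPM in every library.

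Several lists of mature epithelial genes had positive differences without a gain in KO polyps. Of 22 absorptive colonocyte genes, 14 had a difference above 1 and 1 below -1 (median 1.45), with median changes of -1.57 in WT and -0.38 in KO polyps. Slc26a3, the chloride and bicarbonate exchanger of the colon surface, was at 435, 7.12, 521 and 545 TPM (5.81), Car4, a membrane carbonic anhydrase, at 875, 14.2, 1155 and 811 TPM (5.34), and the water channel Aqp8 at 365, 7.08, 782 and 506 TPM (4.87). The 3 libraries other than WT polyps lay within about 1 log2 unit of one another for Slc26a3 and Car4. The member below -1 was Slc9a3, a sodium and proton exchanger, at -2.23.

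Goblet cell genes were above 1 in 11 of 15 cases (median 1.35), but here KO polyps were lower than KO non-polyp tissue as well, with median changes of -2.09 in WT and -0.62 in KO. Clca1, a secreted protein of goblet cell mucus, was at 2239, 107, 1565 and 696 TPM and fell in both genotypes. Zg16, a lectin of the mucus layer, was at 4561, 386, 5612 and 3569 TPM (2.90). Enteroendocrine genes were above 1 in 10 of 18 cases and below -1 in 2 (median 1.13), for example the hormone gene Insl5 at 161, 3.35, 137 and 71.1 TPM (4.28).

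Detoxification genes were above 1 in 14 of 21 cases and below -1 in 2 (median 1.87), and for 14 of the 21 WT polyps stood apart low. Ugt1a7c, a glucuronosyltransferase, was at 120.3, 0.508, 144 and 96.3 TPM (5.76), although the genes of its cluster share exons and overlap. Sult1a1, a sulfotransferase, was at 528, 13.9, 612 and 326 TPM (4.24), and the cytochrome P450 Cyp4f14 at 143, 5.87, 187 and 177 TPM (4.31). Further genes for which WT polyps stood apart low included Aadac, a lipid deacetylase, at 61.2, 0.564, 70.4 and 50.3 TPM (4.83), Hao2, a peroxisomal hydroxyacid oxidase, at 333, 7.24, 372 and 189.8 TPM (4.37), and Selenbp1, a selenium-binding protein, at 1672, 52.4, 1950.2 and 1254 TPM (4.33). Retinoic acid genes divided, with 3 of 17 above 1 and 5 below -1, beside 14% and 12.1% over all names with a mean of at least 1 TPM. Aldh1a3, a retinal dehydrogenase, was high in WT polyps (4.68, 112, 2.55 and 3.13 TPM), while Aldh1a1 was low there.

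**Figure D5:**
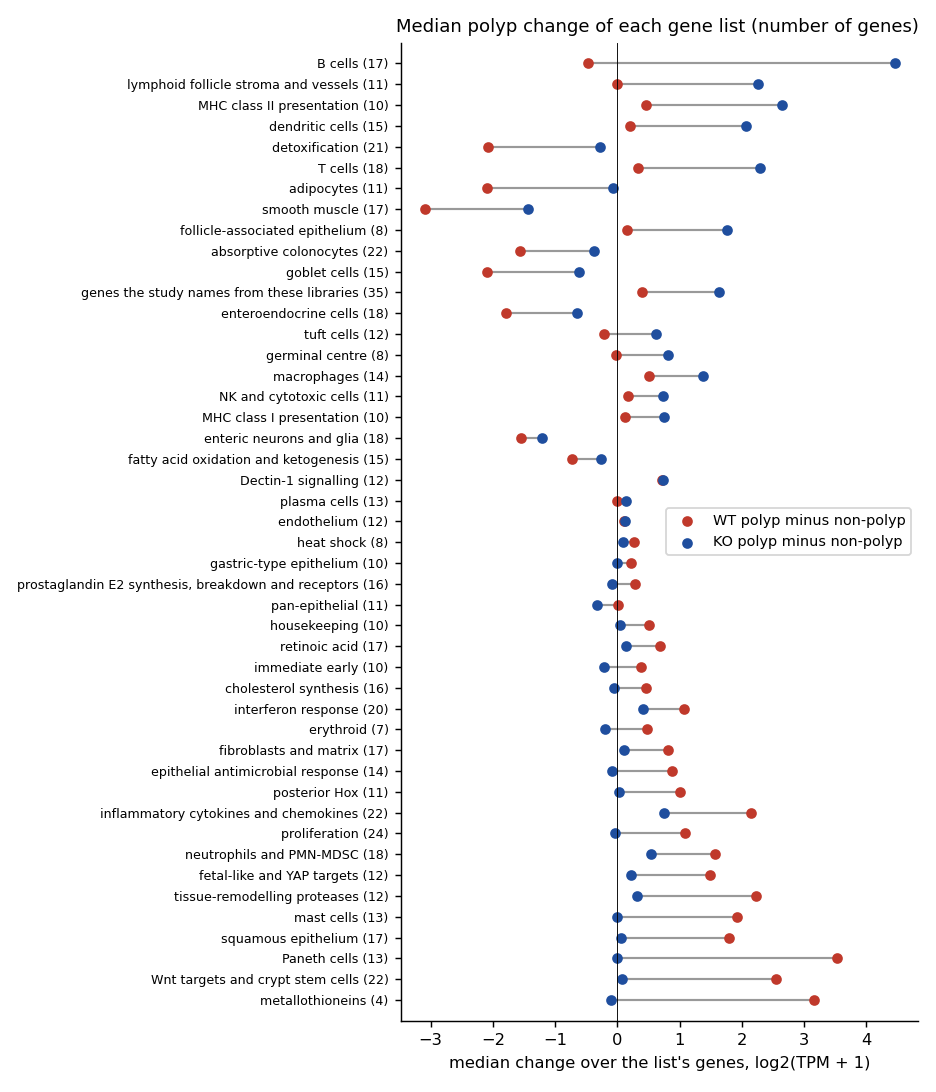
Median change from non-polyp to polyp tissue in log2(TPM + 1) for each gene list, in WT (red) and KO (blue), ordered by the median difference, with the number of genes in brackets and exocrine pancreas, below 1 TPM, left out. Lists at the top (B cells, 4.46 in KO against -0.48 in WT) gained in KO polyps or were lost in WT polyps, and lists at the bottom (Wnt targets and crypt stem cells, 0.07 against 2.54) gained in WT polyps.

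Marker genes of muscle, nerve, fat and blood also differed between the libraries. Smooth muscle genes fell in both genotypes, 16 of 17 in WT and 13 of 17 in KO polyps, and 12 of 17 had a difference above 1 (median 1.67), for example Des, the muscle filament desmin, at 695, 13.3, 561 and 125 TPM. Their summed level was 8102, 1271, 7938 and 2819 TPM. Nerve and glia genes fell in 15 and 11 of 18 cases, with a summed level of 136, 18.4, 121 and 40.4 TPM. Of the 18, 3 had a difference above 1, beside 14% of all names with a mean of at least 1 TPM. Adipocyte genes were above 1 in 10 of 11 cases, with sums of 343, 90.8, 98.8 and 174 TPM, and this rested on WT non-polyp tissue: Adipoq, the fat hormone adiponectin, was at 11.1 TPM there, at 0.0266 in KO non-polyp tissue and listed at 0 in both polyp libraries. Erythroid genes summed to 287, 416, 93.7 and 81.3 TPM. The part of these tissues in the differences of other genes was not tested. Endothelial genes passed in 1 of 12 cases, Pecam1, a junction protein of vessels and leukocytes (difference 1.35), and none of 10 housekeeping genes passed (median -0.33).

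Some differences rested on a non-polyp library. The table of KO non-polyp tissue came in another format than the other 3, and a few genes stood apart in it: Lpp, an adhesion protein of muscle, was high at 29.0 TPM against 3.67, 2.72 and 2.65 in WT non-polyp tissue, WT polyps and KO polyps, and Pex14, a peroxisomal import factor, low at 4.23 TPM against 32.5, 41.0 and 30.8. Atp5j, a subunit of ATP synthase, was low there as well (404, 396, 114 and 329 TPM), and overlaps Gabpa. Wdr20, Kalrn, Jarid2 and Atg7 followed, with differences from 1.38 (Atg7) to 2.58 (Kalrn). WT non-polyp tissue stood apart low for Fancc, a DNA repair factor (1.05, 17.4, 9.72 and 12.2 TPM), and for Eif4g3, Mthfd2l, Prim2, Chd9 and Kctd18, and high for Camk2b (14.2, 3.29, 3.01 and 2.12 TPM) and Nov. Mndal, an interferon-inducible gene with a difference of 5.81, was at 10.02, 5.08, 0.884 and 57.2 TPM, so the KO non-polyp value contributed to it. It overlaps its relatives Ifi211 and Ifi203. With the mean of both non-polyp libraries as 1 baseline for both genotypes, an alternative chosen after seeing the data, the differences were -0.03 for Lpp, -0.40 for Pex14, -0.27 for Atp5j, 0.98 for Kalrn, -0.47 for Fancc, -0.46 for Camk2b and 0 for Adipoq, so none of these stayed past the threshold. Other genes passed it only under that baseline, among them Stra6, which went from -0.83 to -3.31.

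Genes for which KO polyps stood apart high included Fcmr, an IgM receptor, at 7.42, 4.72, 5.07 and 153 TPM (5.23), and Ikzf3, the lymphocyte transcription factor Aiolos, at 1.8, 0.612, 1.1 and 47.5 TPM (5.33). Those that stood apart low there were few, among them Krt17, given above, Hspb1, a small heat shock protein, at 122, 96.4, 107 and 27.6 TPM (-1.57), and Zfp386, Trim32 and Bag2, with differences from -1.88 (Zfp386) to -1.67 (Bag2).

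Fetal-like and YAP target genes were mixed. Of 12, 6 had a difference below -1 and 1 above 1. The gene above 1 was Clu, which encodes clusterin and marks revival stem cells but is also made by follicular dendritic cells; it rose in both genotypes, by 1.57 log2 units in WT and 4.33 in KO polyps. Posterior Hox genes were below -1 in 5 of 11 cases and above 1 in none (median -0.85), with Hoxd12 at 1.93, 44.4, 2.22 and 3.73 TPM. Fibroblast and matrix genes were below -1 in 6 of 17 cases and above 1 in 2, with the collagen gene Col1a1 at 64.1, 184, 55.8 and 52.3 TPM. Tuft cell genes were above 1 in 6 of 12 cases and below -1 in 1 (median 1.07). Beside the counts of these lists, 14% of all names with a mean of at least 1 TPM were above 1 and 12.1% below -1.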

How the data were processed

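The 4 deposited tables were made by the authors: per the study's methods, reads were trimmed with Trimmomatic, aligned to GRCm38 (mm10) with HISAT2 and quantified with StringTie in Galaxy, versions not given in the sources used here. The library kit is described differently in the labels and the methods. The deposited TPM of reference genes was used. In 3 tables this column is a signal that also lists assembled loci, which were left out, and those tables hold FPKM and coverage by the authors, not used because the KO non-polyp table has none. That table instead holds a deposited ratio of TPM to Gapdh, not used.

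TPM was summed per gene name, and 27 names per fuller table that had become dates were restored from identifiers. Levels were compared as log2(TPM + 1), so changes of scarce genes are understated. With 1 library per group there is no error term, no test and no p-value. Members and the 47 gene lists were chosen with earlier results of these data known. Named genes, at 10 TPM or more in some library, were Clec7a, the 10 highest and lowest differences, the 10 largest of each reversal and the 6 largest of each class where 1 library stood apart, leaving out predicted, ribosomal, short RNA, sex-linked and receptor segment genes. Up to 6 members at 5 TPM or more per list, and the genes the study named, were eligible, and 1 of the latter is not reported here. Not every eligible gene is named, and Kank1, Mir194-2, Lyz1, Smoc2, Sp5, Slc9a3, Clu, Pigr, the immunoglobulin genes and members of symbol families were named after their values were seen. Promoter sequences are from RefSeq (GRCm38.p6), matched by symbol. Code was tested on simulated data. Python 3.11.15, pandas 2.3.3, numpy 2.4.6 and matplotlib 3.10.9 were used.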

Additional observations from a re-analysis of the deposited data

Results flagged for a closer look

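The genes below moved in opposite directions from non-polyp to polyp tissue in the 2 genotypes, each by over 1 log2 unit, as did the median of 1 group. With 1 library per group, this difference was not tested for any of them. Up in KO polyps and down in WT polyps, the differences in log2(TPM + 1) were 6.93 for Lcp1, 6.07 for Cr2, 5.81 for Ms4a1, 5.71 for Spib, 5.08 for Il22ra2, 4.90 for Mpc2, 4.83 for Ccr6, 4.65 for Cd69, 4.53 for Cilp and 4.52 for Cxcl13. Over the 184 immunoglobulin segments with a mean of at least 1 TPM, the medians of the WT and KO changes lay on opposite sides (-2.01 and 1.38). The median difference was 3.38, but 81 of the 184 reversed singly. The summed levels of the heavy chain and kappa variable segments and of the constant genes did not reverse, while that of the 3 lambda variable segments did (-3.04 and 1.39). Down in KO polyps and up in WT polyps, they were -5.84 for Ptn, -5.82 for Sarnp, -5.17 for Nkd1, -3.79 for Fst, -3.73 for Col9a2, -3.67 for Chn1os3, -3.56 for Lgr5, -3.49 for Snhg11, -3.39 for Zbtb7c and -3.30 for Fxyd6. These are the 10 largest of each kind among genes at 10 TPM or more in some library, with predicted, short RNA, sex-linked and antigen receptor genes left out, so their size reflects that choice.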

How the results depend on the processing

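No paired analysis was possible because each group holds 1 library, and for the same reason no replicate could be left out. FPKM could not be used, since the KO non-polyp table has none. The counts depended mostly on how scarce genes were treated. With a pseudocount of 0.1 TPM, 6355 names had a difference above 1, 6165 below -1, and 608 and 478 reversed up and down in KO polyps. With 5 TPM these counts were 1394, 1199, 53 and 4. With a mean of at least 5 TPM, 1578 were above 1 and 1316 below -1, and 22 reversed down in KO polyps. Among protein-coding names, 1895 were above 1 and 44 reversed up. Leaving out immunoglobulin, haemoglobin and mitochondrial genes and rescaling the rest gave 68 upward reversals, 60 of them among the 143 reported. The other planned scalings kept all 4 counts within 1.5 times, and no scaling moved the median of names with a mean of at least 1 TPM by over 0.1 log2 units.

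An alternative chosen after seeing the data took the mean of both non-polyp libraries as 1 baseline for each genotype, so that only the polyp libraries separate the genotypes. Its counts were 2760 above 1, 2341 below -1, and 146 and 44 reversed. Under it 6 genes that the text or its rule could name turned in sign: Atp5j to -0.27, Camk2b to -0.46, Car3 to -1.03, Chd9 to 0.18, Nov to -0.27 and Pex14 to -0.40. No other setting did so for the 320 genes eligible to be named. Over all settings, 67 of the 320 crossed the threshold or turned in sign under at least 1, and the medians of 16 of 47 lists crossed it.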
